A study of Homo sapiens with 32 samples.

Results

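IER3 (immediate early response 3, also called IEX-1 or DIF2) was followed in 16 xenograft tumors of ZR-75-1, an established line of estrogen receptor-positive human breast cancer cells. All spotted probes that the study's list of changing genes calls IER3 were taken, which gave 2 cDNA probes, called a and b here, of 9912 probes on the arrays, and 1 gene of 253 genes (333 probes) with a symbol in that list. Tumors of female nu/nu mice given a tamoxifen pellet (2.5 mg over 60 days) and an E2 (17β-estradiol) pellet (0.72 mg over 60 days) were removed after 1 day (4 tumors of 2 mice), 2 days (2 tumors of 2 mice), 4 days (4 tumors of 3 mice), 7 days (4 tumors of 3 mice) or 14 days (2 tumors of 2 mice). Days count from the start of tamoxifen, when the tumors had already grown under E2. Each tumor was hybridised against 1 pool of xenografts from mice with the E2 pellet alone, removed on day 0, 1, 2 or 4 of the same count, on 2 arrays with the dyes exchanged, so that E2 was present in both groups. The xenografts grew from fragments passed under the skin of mice without T cells, and up to 2 tumors came from the 2 flanks of 1 mouse. The pool held no E2-only tumor of day 7 or 14, and there the effect of tamoxifen and that of a longer time under E2 cannot be told apart.

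IER3 is an immediate early gene: its transcription starts within minutes of a growth factor, cytokine or stress signal without new protein being made, and its messenger RNA is short-lived. The small protein that it encodes is a target of the ERK kinases and has been tied to the survival of cells under death signals and to apoptosis in other settings. NF-κB and p53 are among the transcription factors known to act on the gene. In the GRCh38.p14 annotation of RefSeq the gene (gene ID 8870) lies on chromosome 6, at chr6:30743199-30744547, a span of 1349 bases. A long non-coding RNA, IER3-AS1, overlaps 475 bases of it, and spotted cDNA probes do not tell the strands apart, so that signal of the overlap could come from either transcript. The probe positions within the gene are not given in the sources used here.

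The spots of IER3 stood above their local background. Over the 31 arrays used, probe a lay 2.74 to 28.4 times above background in the tumor channel and 2.27 to 10.0 times in the pool channel. For probe b these ratios were 1.92 to 18.9 in the tumor channel and 1.43 to 8.25 in the pool channel, and 3 of its 31 spots carried the scanner's mark for a bad spot and were left out. The second probe was thus the dimmer and the less complete of the pair, with 28 values against 31.

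The values below are log2 ratios of tumor over pool, so that 1 means a doubling and 0 the level of the pool. The scanner files number the channels without naming the dyes. The signs follow the authors' processed table, in which tumor over pool is channel 2 over channel 1 on forward arrays. The dyes as the sample labels give them would turn the sign of every log2 ratio in this text, but not that of correlations between genes. Higher in the tumors is therefore the likely direction of IER3, on the basis of that table, of the study's gene list and of its protein stains of other genes.

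IER3 was above the pool in all 16 tumors with both probes, and in 1 of them, replicate 3 of day 4, by 0.17 and 0.04 on a single array. By the setting used here, probe a was positive on 31 of 31 arrays and probe b on 28 of 28 arrays with a value. Of all 9912 probes, 124 (1.25%) were higher than the pool in all 16 tumors. IER3 entered the study's list through a fold and p threshold applied to these same arrays, so that its difference from the pool is a description and not independent evidence.

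On day 1, probe a had log2 ratios of 0.36 and 0.45 in both tumors of the first mouse (replicates 1 and 2) and of 1.16 and 1.11 in both tumors of the second (replicates 3 and 4). Probe b gave 0.48 and 0.46 in the first mouse and 1.02 and 0.83 in the second. The tumors of the second mouse were thus higher than those of the first with both probes, without overlap.

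On day 2, probe a had log2 ratios of 0.84 and 1.29 in the 2 tumors, each of a mouse of its own. Probe b had 1.26 and 0.91 in the same order. The probes put the tumors in opposite order, and the dye-swap array of replicate 1 was the dimmest of the series, with a median signal 2.29 times its background in the weaker channel.

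On day 4, probe a had log2 ratios of 1.45, 1.42, 0.17 and 1.25 in replicates 1, 2, 3 and 5. Probe b had 1.21, 1.20, 0.04 and 0.66 in the same tumors. Replicate 3 was near the level of the pool with both probes, and the other tumors were well above it. Its value rests on the forward array alone, because the raw log ratios of its dye-swap array followed those of the forward array of replicate 2 (r = 0.98 over all probes, without turning the sign), and that array was left out. The title of that dye-swap array names replicate 4, and it was assigned here to the tumor of replicate 3. In the authors' processed table the forward array of replicate 3 had 0.052 and 0.073, and the column of the left-out array had -0.0049 and 0.076, for the first and the second probe.

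On day 7, probe a had log2 ratios of 0.64, 1.21, 0.87 and 0.77 in replicates 1 to 4. Probe b had 0.58, 1.59, 0.55 and 0.64. Replicate 2 was the highest with both probes, and its value for probe b rests on 1 array, since the spot on the other was marked as bad.

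On day 14, probe a had log2 ratios of 1.18 and 1.38 in the 2 tumors, each of a mouse of its own. Probe b had 1.08 and 1.46. Single tumors of days 1 to 7 reached 1.45 with probe a and 1.59 with probe b, so that the values of day 14 overlapped with those of earlier days.

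**Figure D1:**
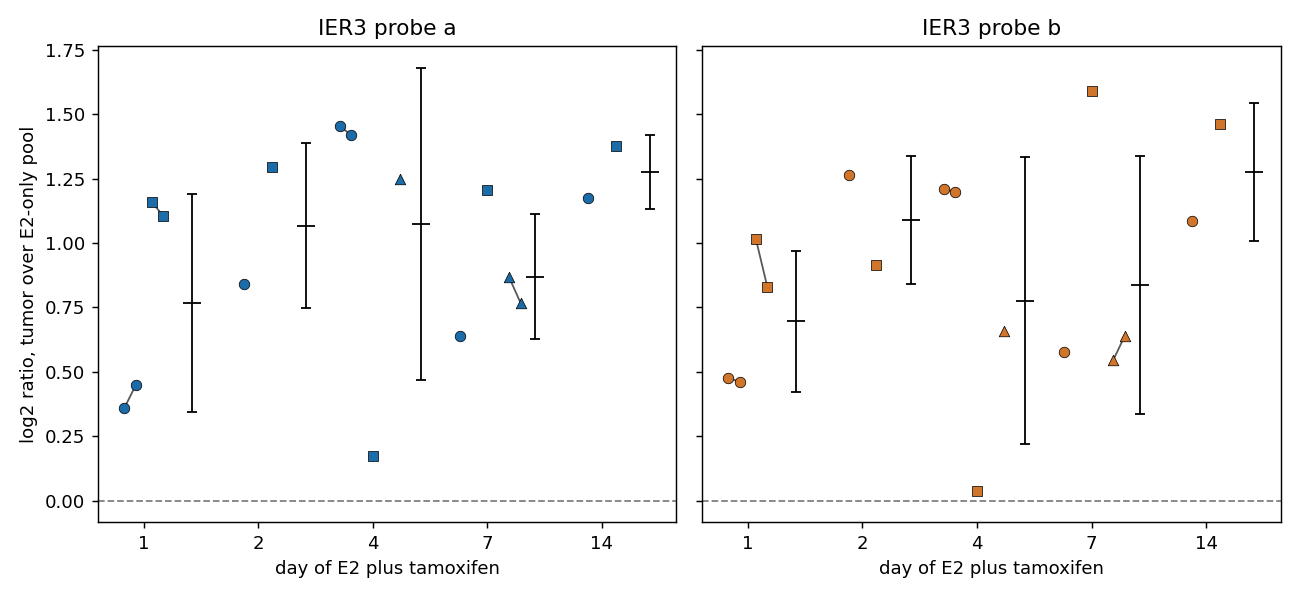
Log2 ratio of tumor over pool (y axis) of each IER3 probe by day of treatment (x axis). Each point is 1 tumor, points of 1 shape within a day are 1 mouse, tumors of the same mouse are joined, the black bar is the mean with its SD (n = 4, 2, 4, 4 and 2 tumors) and the dashed line is the pool. All points are above 0, joined points lie close together, and 1 tumor of day 4 is at 0.17 and 0.04.

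The mean of probe a on day 1 was 0.77 ± 0.42 (SD, n = 4 tumors), or 1.70-fold over the pool, with an adjusted p of 0.0188 from limma's moderated test with Benjamini-Hochberg adjustment over 9912 probes. On day 2 it was 1.07 ± 0.32 (n = 2), or 2.10-fold, and missed the threshold of 0.05 (limma, adjusted p = 0.0578). On day 4 it was 1.07 ± 0.61 (n = 4), or 2.10-fold (limma, adjusted p = 0.00890). On day 7 it was 0.87 ± 0.24 (n = 4), or 1.83-fold (limma, adjusted p = 0.0332). On day 14 it was 1.28 ± 0.14 (n = 2), or 2.42-fold (limma, adjusted p = 0.00524). This probe therefore passed the test on 4 of the 5 days.

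Probe b gave 0.70 ± 0.27 on day 1 (SD, n = 4; 1.62-fold), 1.09 ± 0.25 on day 2 (n = 2; 2.13-fold), 0.78 ± 0.56 on day 4 (n = 4; 1.71-fold), 0.84 ± 0.50 on day 7 (n = 4; 1.79-fold) and 1.27 ± 0.27 on day 14 (n = 2; 2.42-fold). It passed limma's test on days 1 (adjusted p = 0.0313), 7 (0.0418) and 14 (0.00604). It did not pass on day 2 (0.0585) or day 4 (0.0526). Without replicate 3 of day 4 the day 4 estimates were 1.38 for probe a (limma, adjusted p = 0.000388) and 1.03 for probe b (0.0111).

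The share of all probes called higher by the same test was 3.01% on day 1, 0.141% on day 2, 0.373% on day 4, 0.242% on day 7 and 3.32% on day 14. The share called lower was 3.59%, 0.636%, 0.696%, 0.494% and 2.95% on those days. By estimated log2 ratio, probe a ranked 26 of 9912 probes on day 1, 5 on day 2, 1 on day 4, 5 on day 7 and 17 on day 14. Probe b ranked 44, 4, 10, 6 and 18. Only 4 probes (0.0404%) had a ratio of at least 1.5-fold over the pool at an unadjusted p of at most 0.05 on every one of the 5 days, and both IER3 probes were among them. The others were those of STC1, which encodes the secreted hormone stanniocalcin, and of a gene listed as ZNF36. These are the measures by which the study chose its genes, and they are given as description.

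The days could not be told apart for IER3. Ordered by the estimate, probe a was lowest on day 1 (0.77), followed by day 7 (0.87), days 2 and 4 (both 1.07) and day 14 (1.28), and each neighbouring difference was smaller than the larger SD of the pair. For probe b the order was day 1 (0.70), day 4 (0.77), day 7 (0.84), day 2 (1.09) and day 14 (1.27), and the same held. The F-test over the 5 days, which does not use the pool's level, gave an adjusted p of 0.790 for probe a and 0.744 for probe b (limma), and 0.0807% of all probes passed it. Day 14 minus the mean of days 1 to 7 was 0.33 (95% interval -0.24 to 0.90; limma, adjusted p = 0.684) for probe a and 0.43 (-0.16 to 1.01; adjusted p = 0.595) for probe b, against 0.343% of probes called in that contrast in either direction. The differences between neighbouring days ran between -0.32 and 0.43 with limma's adjusted p at 0.798 or above. For probe b, the interval of day 14 minus day 7 (0.43) ran from -0.23 to 1.10, and that of day 4 minus day 2 (-0.32) from -0.98 to 0.35. Each thus reached about a 2-fold change in 1 direction. Such changes between these days could not be told from no change with 2 to 4 tumors per day.

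Tumors of the same mouse had nearly the same IER3 level, and mice differed. In the 4 mice with 2 tumors, the pair differed by 0.089, 0.054, 0.035 and 0.10 in log2 ratio with probe a and by 0.015, 0.19, 0.010 and 0.093 with probe b. The mean difference within a mouse was 0.069 for probe a, whereas tumors of different mice on the same day differed by 0.58 on average (4 pairs and 16 pairs). For probe b these means were 0.076 and 0.61. The 2 arrays of 1 tumor differed by more, by 0.24 on average with probe a and 0.40 with probe b. With probe b, replicate 2 of day 4 and replicate 3 of day 7 rest on 1 array each. The 4 pairs were thus closer than the arrays of a tumor, and whether so close an agreement would recur in other mice was not tested. The ratio of the mean difference within mice to that between mice was 0.12 and 0.13 for the IER3 probes, against a median of 0.94 over all probes and of 0.83 over the named probes.

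The within-mouse correlation, estimated per probe with limma's duplicateCorrelation, was 0.99 for probe a and 0.98 for probe b, against a median of 0.080 over all probes. Counting each probe itself, 2 of the 9912 probes were at or above the value of probe a and 14 at or above that of probe b. Each such estimate rests on 4 mice, and tumors of 1 mouse also shared the time of removal, so that the mouse and any handling shared by its tumors cannot be told apart.

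**Figure D2:**
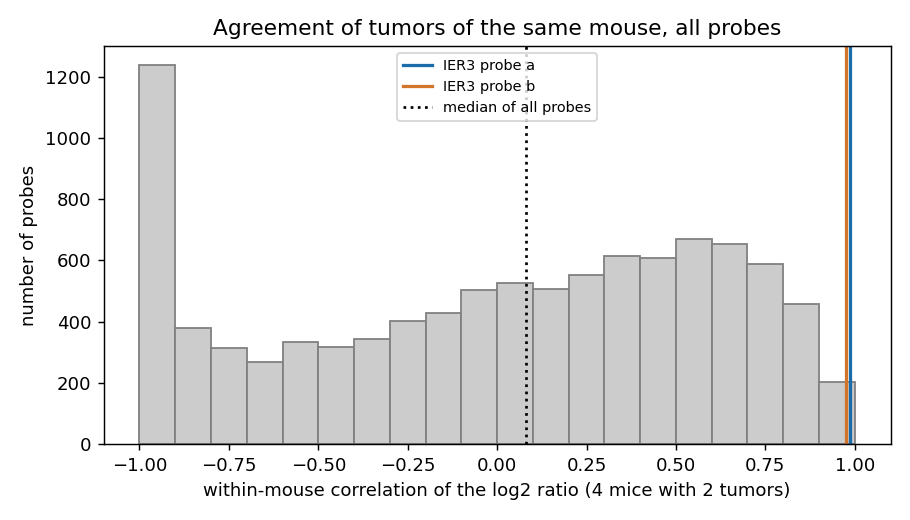
Number of probes (y axis) by the within-mouse correlation of their log2 ratio (x axis, bins of 0.1) over all 9912 probes, estimated from the 4 mice that carried 2 tumors. The coloured lines are the IER3 probes, at 0.99 and 0.98, and the dotted line is the median of all probes, 0.080. Values pile up at the lower bound of -0.99.

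This agreement bears on the tests, because the fit over tumors used a single mouse correlation for all probes (0.021), far below that of IER3. With 1 mean per mouse (12 values), probe a had 0.77 ± 0.52 on day 1 (SD, n = 2 mice), 1.07 ± 0.32 on day 2 (n = 2), 0.95 ± 0.68 on day 4 (n = 3), 0.89 ± 0.29 on day 7 (n = 3) and 1.28 ± 0.14 on day 14 (n = 2). By that fit limma's adjusted p was 0.259 on day 1, 0.0856 on day 2, 0.102 on day 4, 0.159 on day 7 and 0.0110 on day 14. For probe b it was 0.322, 0.0861, 0.219, 0.159 and 0.0132 on the same days. Day 14 was thus the one day on which both probes passed the test over mice as well as over tumors, with 2 mice.

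The 2 probes gave like values. Over the 16 tumors they correlated at r = 0.79. The first probe minus the second, averaged within each of 12 mice, was 0.081 ± 0.29 (SD) and positive in 8 of 12 mice (two-sided exact sign-flip permutation test, p = 0.354, where 0.000488 is the smallest p that 12 mice allow). The probes were furthest apart in replicate 5 of day 4, with 1.25 and 0.66.

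The dye orientations were compared next, since a dye effect of a probe would move the forward and the dye-swap array in opposite ways. Probe a ranged over 0.17 to 1.52 on forward arrays (median 1.10) and over 0.24 to 1.43 on dye-swap arrays (median 1.06). In the 15 tumors with both arrays, forward was the higher in 10, and the orientations differed by less than 0.2 in 7. Forward minus dye-swap was 0.097 ± 0.32 over mice (SD, n = 11; two-sided exact sign-flip permutation test, p = 0.343, adjusted over the 2 probes 0.404).

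For probe b the values ran over 0.04 to 1.59 on forward arrays (median 0.87) and over 0.20 to 1.78 on dye-swap arrays (median 0.76). In the 12 tumors with both arrays, forward was the higher in 7, and the difference over mice was 0.14 ± 0.51 (SD, n = 10; two-sided exact sign-flip permutation test, p = 0.404, adjusted 0.404). The widest gap, 1.03, was in replicate 1 of day 2, with 0.75 on the forward array and 1.78 on the dim dye-swap array. Across tumors the 2 orientations correlated at 0.72 for probe a and 0.29 for probe b, so that the order of single tumors is better determined by the first probe. In the authors' processed table, with all columns, forward exceeded dye-swap by 0.22 (n = 12 mice; exact sign-flip permutation test, p = 0.00781) for probe a and by 0.34 (p = 0.00195) for probe b.

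**Figure D3:**
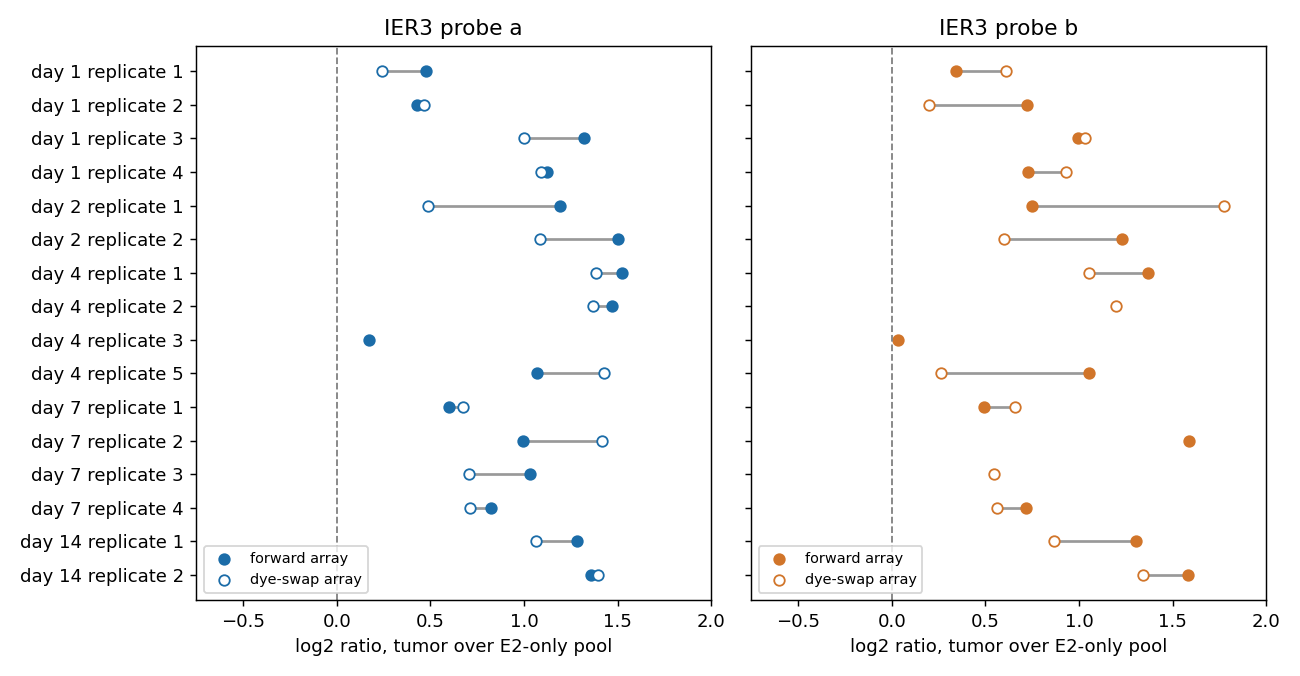
Log2 ratio of tumor over pool (x axis) of each IER3 probe in each tumor (y axis) on the forward array (filled) and the dye-swap array (open), both turned to tumor over pool; a line joins the 2 arrays of a tumor. Every point is right of 0, the pairs are closer for probe a than for probe b, and single points are tumors with 1 usable spot.

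Markers of the cell types that the tumors could hold were measured as well. The cancer cells are human and the cells of the host are of the mouse. Which of them gave the signal of a marker was not measured. Of 15 luminal breast epithelium markers, 9 carry a name here, and all 9 gave signal above background (median 5.02 to 204 times in the weaker channel); ESR1, GATA3, CDH1 and the keratins of the list are not among the named probes. Of these 9, 5 were called higher and 2 lower on day 14, and 4 higher and 3 lower on day 1. Over all probes 3.32% were called higher and 2.95% lower on day 14, and 3.01% and 3.59% on day 1. Of 8 fibroblast and matrix genes 3 are named (MGP, LGALS1 and FN1), and all 3 were lower on day 14, with means of -1.15 ± 0.53, -0.68 ± 0.37 and -0.61 ± 0.22 (SD, n = 2 tumors; limma, adjusted p = 0.000710, 0.0220 and 0.0413). Of 4 endothelial and 4 leukocyte markers none is named, and of 2 named globin probes 1 was called lower, on day 4. The part of these cells in the IER3 ratio was not tested, and in whole tumors a change in the share of a cell type and a change in its RNA per cell cannot be told apart.

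Of the other 25 immediate early genes on the list 4 are named. Of these 4, 1 was called higher on day 1, 1 on day 14 and none on the other days. Called lower were 1 on each of days 1, 4 and 7 and 2 on day 14. Over all probes 3.01% were called higher on day 1, 3.32% on day 14 and 0.141% to 0.373% on the days between. The share called lower was 3.59% on day 1, 0.696% on day 4, 0.494% on day 7 and 2.95% on day 14. Counts over 4 genes are given as description. EGR3, a zinc finger transcription factor that E2 is known to induce, was lower on days 1, 4, 7 and 14, and had -1.81 ± 0.23 on day 14 (SD, n = 2; limma, adjusted p = 9.95e-05). FOS, a subunit of the AP-1 transcription factor, had 0.32 ± 0.84 on day 1 and was lower on day 14, at -1.12 ± 0.43 (adjusted p = 0.0442). RHOB, a small GTPase of endosomes, was higher on day 14, at 0.72 ± 0.04 (adjusted p = 0.00349), and BTG2, an antiproliferative p53 target, was higher on day 1, at 0.59 ± 0.21 (n = 4; adjusted p = 0.0412). The median of these 4 genes on day 14 was -0.82, against -0.32 over the 333 named probes and 0.00010 over all probes.

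Of 13 genes of the ERK pathway and its feedback, 4 are named. DUSP4, a phosphatase of ERK, was between 0.27 and 0.92 on all days by its means and passed the test on none. PHLDA1, a target of ERK signalling, was higher on day 1 at 0.59 ± 0.35 (SD, n = 4; limma, adjusted p = 0.0347). RGS2, which shuts off G proteins, was lower on day 1 at -0.73 ± 0.13 (adjusted p = 0.0213) and on day 2 at -1.14 ± 0.68 (n = 2; adjusted p = 0.0362). SHOC2, a scaffold that feeds RAS signals to RAF, was lower on day 14 at -1.03 ± 0.06 (adjusted p = 0.0238).

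Of 23 regulators of apoptosis, 7 are named, and on day 14 4 were called higher and 2 lower, against 3.32% and 2.95% of all probes. Those higher were CLU, the chaperone clusterin, at 0.97 ± 0.24 (SD, n = 2; limma, adjusted p = 0.000186), PERP, a p53 target of cell junctions, at 0.86 ± 0.30 (0.000578), TXNIP, which inhibits thioredoxin, at 1.00 ± 0.20 (0.00120), and BIK, a BH3-only killer protein, at 0.86 ± 0.27 (0.00373). Those lower were IL24 and SIAH2. CLU was also called higher on each of the 4 earlier days, with means of 0.33 to 0.73. Of 13 NF-κB targets none is named, and of 13 p53 targets PERP and BTG2 are. The lists were drawn from genes whose probes the study had chosen on these arrays, and their counts are not independent evidence of a direction.

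Estrogen-induced genes were below the pool. Of 26 on the list 18 are named, and 8 of them were called lower on day 1, 3 on day 2, 9 on day 4, 9 on day 7 and 17 on day 14, and none higher on any day. Over all probes the share called lower was 3.59%, 0.636%, 0.696%, 0.494% and 2.95% on those days. These genes too were chosen by the study on these arrays, and the median of all named probes on day 14 was -0.32. TFF3 and TFF1, the trefoil factors, had -1.94 ± 0.03 and -2.11 ± 0.95 on day 14 (SD, n = 2; limma, adjusted p = 4.24e-05 and 0.000201), and OLFM1, a secreted glycoprotein, had -1.33 ± 0.38 (8.31e-05). The median of the 18 genes in single tumors ran between -1.60 and -0.16. It was -0.16 in the tumor of day 1 in which IER3 (mean of its 2 probes) was 0.42, and -1.60 in the tumor of day 14 in which IER3 was 1.42.

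Over 12 mouse means, IER3 and the median of the estrogen-induced genes correlated at r = -0.73 (permutation test, two-sided, p = 0.00707, adjusted over 2 relations 0.0141) and Spearman's rho = -0.82 (p = 0.00184, adjusted 0.00368). Without the 2 mice farthest from the median of IER3, r was -0.73. Over the 16 tumors r was -0.70, and over their deviations from the day means it was -0.70. The tumors with the higher IER3 thus tended to have the lower estrogen-induced genes, within days as well as across them. IER3 also went with the spread (SD) of the ratios over the other named probes, with r = 0.65 over mice (p = 0.0219, adjusted 0.0219) and rho = 0.76 (p = 0.00545, adjusted 0.00545). Without the 2 mice farthest from the median of IER3 this r was 0.80. Over the 16 tumors it was 0.55, and over their deviations from the day means 0.51. Single tumors went against it: replicate 1 of day 4 had IER3 at 1.33 and a spread of 0.489, and replicate 1 of day 1 had IER3 at 0.42 and a spread of 0.666. The part of this spread in the relation with the estrogen-induced genes was not tested. All ratios share the pool, and the study chose IER3 and these genes on these arrays for differing from it. The permutation also exchanged mice of different days, so that these p-values are description and not independent evidence. Of the other 252 named genes, 43 had an r under -0.5 with IER3, and 14 of them are among the 18 named genes of the estrogen-induced list. All 18 had a negative r, between -0.75 and -0.35. Negative relations were thus frequent in this list, and genes outside it had them too.

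**Figure D4:**
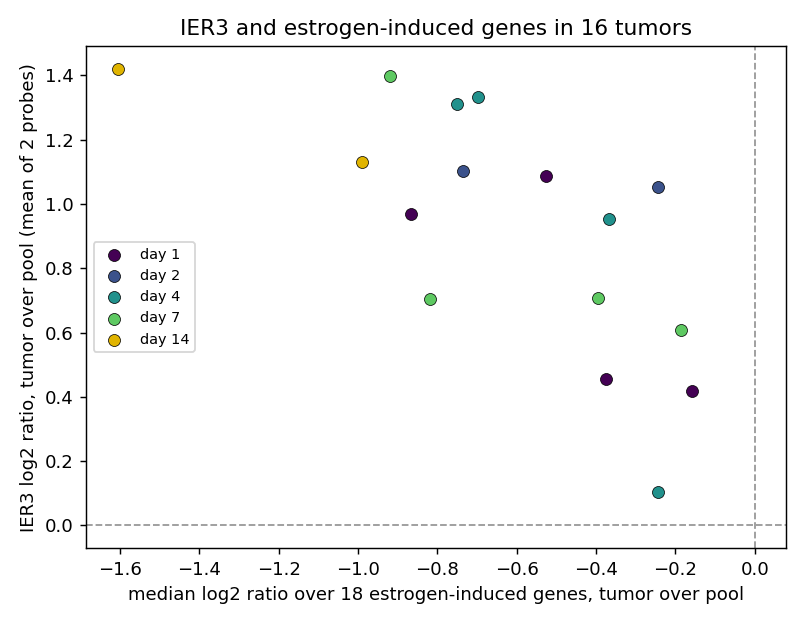
IER3 log2 ratio (mean of its 2 probes, y axis) against the median log2 ratio of 18 estrogen-induced genes (x axis), both tumor over pool, with 1 point per tumor (n = 16) coloured by day. IER3 tends to be higher where the estrogen-induced genes are lower, with the first mouse of day 1 and replicate 3 of day 4 at the low end of IER3 and replicate 2 of day 14 at the high end.

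Among the other 252 named genes, those whose ratios followed IER3 most closely over the 16 tumors were ALDH4A1 (r = 0.84, rho = 0.90), OACT2 (now MBOAT2; r = 0.70, rho = 0.71), S100P (r = 0.70, rho = 0.68), C20orf3 (now APMAP; r = 0.70, rho = 0.77) and PPAP2C (now PLPP2; r = 0.69, rho = 0.81). The probes of IER3 correlated with each other at 0.79. That value is between single probes and is not a like measure to these r, which are with the mean of the pair. The genes were picked for this likeness out of 252, tumors of 1 mouse are not independent, and all ratios share the pool, so that no p is given. Without replicate 3 of day 4 and replicate 1 of day 1, the 2 tumors farthest from the median of IER3, r was 0.80 for ALDH4A1 and 0.62 to 0.71 for the other 4. All 5 stayed among the 20 most alike by deviations from the day means, and 3 among the first 5.

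ALDH4A1, a mitochondrial enzyme of proline breakdown, had means of 0.46 ± 0.21 on day 1 (SD, n = 4), 0.51 ± 0.11 on day 2 (n = 2), 0.55 ± 0.34 on day 4 (n = 4), 0.41 ± 0.15 on day 7 (n = 4) and 0.96 ± 0.15 on day 14 (n = 2). It was above the pool in each of the 16 tumors (0.19 to 1.07). MBOAT2, an acyltransferase of phospholipids, had 0.98 ± 0.11 on day 14 and means of 0.29 to 0.35 on the earlier days. PLPP2, a lipid phosphate phosphatase, had a mean of 0.14 on day 1 and of 1.18 ± 0.06 on day 14 (n = 2). S100P, a calcium-binding protein, ran between -0.82 and 0.97 over the tumors, and so followed IER3 without being above the pool throughout.

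The genes that ran most opposite to IER3 were MAT1A, the liver form of methionine adenosyltransferase (r = -0.86, rho = -0.84), RAB31, a small GTPase of vesicle traffic (r = -0.78, rho = -0.81), and SEMA3B, a secreted semaphorin (r = -0.78, rho = -0.83). MAT1A had means of -0.64 ± 0.32 on day 1 (SD, n = 4) and -1.17 ± 0.15 on day 14 (n = 2). RAB31 had -1.87 ± 0.24 on day 14 and ran between -2.05 and 0.73 over the tumors. Over 12 mouse means these r were -0.92 for MAT1A, -0.82 for RAB31 and -0.81 for SEMA3B.

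The study took IER3 further by quantitative RT-PCR in cultured cells, where the question was whether tamoxifen reversed what E2 did to the gene. The xenograft arrays bear on that question in part only. They hold no tumor without E2 and none with tamoxifen alone, so that the effect of E2 on IER3 was not measured here. What they show is the level of IER3 under E2 and tamoxifen relative to E2 alone. By the likely direction of the ratios it was above the pool in 15 tumors and near the pool in replicate 3 of day 4. The left-out array of that tumor gave -1.17 for probe a. Its raw log ratios followed those of the forward array of replicate 2, so that this value cannot be assigned to replicate 3. Its column of the authors' processed table had -0.0049 for that probe.

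**Figure D5:**
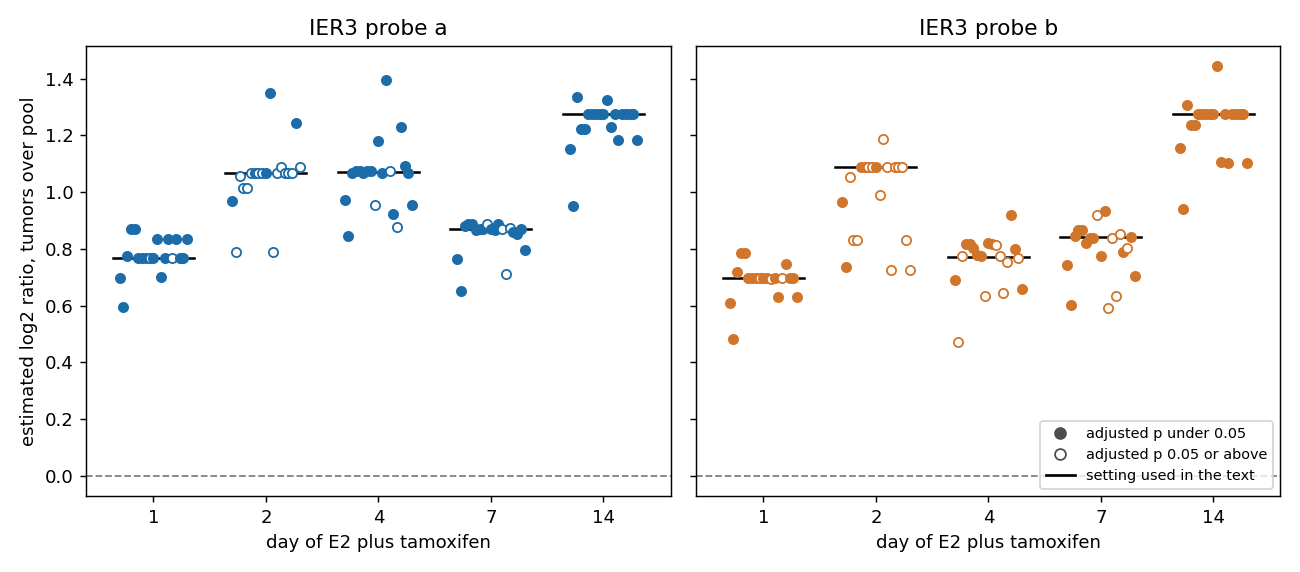
Estimated log2 ratio of tumors over pool (y axis) of each IER3 probe by day (x axis) under other ways of processing or fitting the data. Fits without 1 tumor are not drawn and are given in the text. Each point is 1 way, filled where limma's adjusted p was under 0.05, and the black line is the estimate given in the text. All points are above 0, and those of day 14 are all filled.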

How the data were processed

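RNA of 16 ZR-75-1 xenografts was measured on 32 spotted cDNA arrays against the E2-only pool. The deposited scanner files give spot intensity and local background per channel as linear values, and the processed table deposited by the authors holds log2 ratios already turned to tumor over pool; per the labels and the study's methods it was made with limma (background correction, loess and quantile normalization). The number of arrays, not reads, limits the precision. No column of per-sample values was left unused.

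From the scanner files, intensities were background-corrected (normexp, offset 50), marked spots were left out, arrays were normalized (loess, then quantile) in limma 3.58.1 under R 4.3.3, dye-swap ratios were turned and the 2 arrays of a tumor were averaged. One dye-swap array of day 4 was left out, which left 31. Each day's mean was tested against 0 for all 9912 probes with lmFit, duplicateCorrelation over the mouse (consensus 0.021) and eBayes, with Benjamini-Hochberg adjustment. The pool is 1 sample and its own spread is not in these tests. Paired differences used exact sign-flip tests. The fits were also run on simulated data with tumors drawn independently, so that agreement within a mouse was not tested there.

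IER3 was named through the study's gene list, since the arrays' files hold no gene names. The members, gene lists and tests were chosen with earlier results of these data known. Other genes were named by a rule: the members of each list by counts, with values for up to 4 by adjusted p on day 14 and further members where a count singled them out, and the 5 genes most like IER3 and the 3 least like it, with the brightest probe standing for a gene. STC1 and ZNF36 were named after their values were seen. Fold changes and p-values in the study's list were not used.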

Additional observations from a re-analysis of the deposited data

Results flagged for a closer look

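In groups of 4 tumors, the lowest or highest value was compared with the rest by Dixon's ratio of gap to range against its 95% critical value, which flags about 1 group in 20 by chance. On day 4, replicate 3 stood apart low for probe a, at 0.17 (ratio 0.84), and had 0.04 for probe b, where the ratio was 0.53. On day 7, replicate 2 stood apart high for probe b, at 1.59 (ratio 0.91), and had 1.21 for probe a, where the ratio was 0.60. The value of 1.59 rests on 1 array.

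The dye-swap array assigned to replicate 3 of day 4, whose title names replicate 4, was not used in the comparisons. Turned as its label says, it gave -1.17 for probe a, the one array below 0, and a spot marked as bad for probe b. Over the named probes the array correlated at 0.057 with its own column of the authors' table, in which 28 of 32 arrays reached 0.9 or more. The forward array of replicate 4 of day 7 correlated at -0.19 with its column; there the scanner file gave 0.83 and 0.72 for the 2 IER3 probes, and the table gave -0.098 and 0.24.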

How the results depend on the processing

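All 350 estimates of IER3 against the pool made under other processing, other fits or without 1 tumor were above 0 (0.47 to 1.46 in log2 ratio), so that what changed was the side of the threshold. Those without 1 tumor could not fall below 0, since both probes were above the pool in all 16 tumors. The settings without normalization between arrays and with Aquantile gave the same values and are counted separately. None of the 420 day differences and F-tests reached an adjusted p under 0.05. On day 14 both probes passed the test under all 19 other settings (0.95 to 1.33 and 0.94 to 1.44) and failed it when either tumor was left out. The block for scan date or slide was not run, since the files give neither. Within days 4 and 7 a mouse correlation could not be estimated, and their fits alone had no mouse block.

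Probe a missed the threshold on day 2 and passed it with plain background subtraction (0.97, adjusted p = 0.0342), without the dimmest 25% of probes (1.07, 0.0458), on single arrays with a dye term (1.07, 0.000706), on forward arrays (1.35, 0.0122) and, in an alternative chosen after seeing the data, without the dye-swap array of day 2 replicate 1 (1.24, 0.0170). It lost the call with 1 mean per mouse on days 1, 4 and 7 (0.77, 0.95 and 0.89; 0.259, 0.102 and 0.159), with the doubtful array of day 4 used as labelled on days 1, 4 and 7 (0.77, 0.88 and 0.87; 0.0946, 0.537 and 0.160), with the tumors of the day alone on days 4 and 7 (1.07 and 0.87; 0.114 and 0.0655), and in the authors' table on day 7 (0.71, 0.209). Probe b passed on day 2 with plain subtraction (0.96, 0.0381), no background correction (0.74, 0.0438), all spots (1.09, 0.0360), no dim probes (1.09, 0.0460) and single arrays (1.09, 0.00266). It passed on day 4 with plain subtraction (0.69, 0.0363), no normalization between arrays or Aquantile (0.82, 0.0455), all spots (0.80, 0.0316), no dim probes (0.78, 0.0378), no mouse block (0.78, 0.0488), single arrays (0.82, 0.00663), forward arrays (0.82, 0.0401), array weights (0.92, 0.0356), and, chosen after seeing the data, without the forward array of day 7 replicate 4 (0.80, 0.0494) or in the authors' table less 2 doubtful columns (0.66, 0.0395). It lost the call on days 1 and 7 with 1 mean per mouse (0.70 and 0.92; 0.322 and 0.159), on dye-swap arrays (0.69 and 0.59; 0.0825 and 0.176) and with the doubtful array (0.70 and 0.85; 0.0553 and 0.0886), and on day 7 alone with the tumors of that day (0.84, 0.144), in the authors' table (0.63, 0.177) and without the forward array of day 7 replicate 4 (0.80, 0.0614). The cause was not tested.

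Leaving out 1 tumor moved probe a between 0.64 and 0.89 on day 1, 0.84 and 1.29 on day 2, 0.95 and 1.38 on day 4, 0.76 and 0.95 on day 7 and 1.18 and 1.38 on day 14. It moved probe b between 0.59 and 0.76, 0.91 and 1.26, 0.63 and 1.03, 0.59 and 0.93, and 1.08 and 1.46 on those days. For probe a the day 1 call was lost without day 1 replicate 2, 3 or 4 (adjusted p = 0.0566, 0.110 and 0.0741), the day 4 call without day 4 replicate 2 (0.0759), the day 7 call without day 1 replicate 2 (0.0534), day 4 replicate 1 (0.0538) or day 7 replicate 1, 2, 3 or 4 (0.0633, 0.258, 0.140 and 0.104), and the day 14 call without either of its tumors (0.0737 without replicate 1, 0.189 without replicate 2); a day 2 call was gained without day 4 replicate 3 (0.00917). For probe b the day 1 call was lost without day 1 replicate 1, 2, 3 or 4 (0.0886, 0.0929, 0.157 and 0.0902) or day 4 replicate 1 (0.0531), the day 7 call without day 1 replicate 1, 2 or 3 (0.0555, 0.0649 and 0.0605), day 4 replicate 1 (0.0588), day 7 replicate 1, 2, 3 or 4 (0.0738, 0.328, 0.101 and 0.111) or either tumor of day 14 (0.0527 each), and the day 14 call without its replicate 1 or 2 (0.0578 and 0.235). Its day 2 call was gained without day 4 replicate 2 or 3 (0.0496 and 0.0207) or day 7 replicate 2 (0.0229), and its day 4 call without day 1 replicate 4 (0.0447), either tumor of day 2 (0.0498 each), day 4 replicate 3 (0.0111) or day 7 replicate 2 (0.0253). Where a day was left with 1 tumor, that tumor was assumed to vary like those of the other days.

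Day 4 minus day 2 of probe a (0.0022) turned negative with 1 mean per mouse (-0.12), on forward arrays (-0.28), in the authors' table (-0.16; -0.13 less 2 columns), with the doubtful array (-0.19) and without the dye-swap array of day 2 replicate 1 (-0.18), and ran between -0.22 and 0.31 without 1 tumor. Day 7 minus day 4 of probe b (0.069) turned negative on single arrays (-0.048), on dye-swap arrays (-0.22), in the authors' table (-0.012), with array weights (-0.13) and with a replicate block (-0.026), and ran between -0.20 and 0.22 without 1 tumor. The difference between the probes passed an exact sign-flip test in the authors' table (0.21, p = 0.00928). So did the difference between dye orientations there (0.22, p = 0.00781, and 0.34, p = 0.00195) and, for probe b, without normalization between arrays or with Aquantile (0.32, exact p = 0.0195).

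Replicate numbers name tumors of different mice on different days and do not pair them: of 24 pairs of tumors with the same number on different days 5 correlated above 0.1 in their deviations, and 5 of 16 tumors correlated best with their own number. The replicate block left the calls over the 5 day contrasts at 32, against 42 without it, and turned no IER3 contrast into a call. Over all 9912 probes, limma called 654 on day 1, 77 on day 2, 106 on day 4, 73 on day 7 and 621 on day 14, and in the same order the other settings gave 26 to 1869, 1 to 301, 0 to 928, 0 to 1044 and 505 to 1440. Leaving out 1 tumor gave 125 to 993, 6 to 325, 15 to 136, 14 to 116 and 30 to 730. The 0 on day 4 came with the doubtful array used as labelled (454 probes at an unadjusted p under 0.05) and that on day 7 from the authors' table (1016). With 1 mean per mouse 26, 73, 25, 14 and 672 were called.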
